A study of Mus musculus with 2 samples.

Results

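The genes described here code for proteins of the myelin sheath, or for an enzyme that makes its lipids: Mbp, Mobp, Mag, Mog, Cnp, Mal, Cldn11, Ugt8a and Opalin. They were chosen by symbol, and all 9 were found among the 32285 genes of both count matrices. Single-nucleus RNA sequencing was done on mouse subventricular zone (SVZ), the germinal layer that lines the lateral ventricle. The tissue was snap-frozen before nuclei were isolated. One library came from mice with MIP, a modeled intestinal perforation, and one from Control mice, which a label also calls healthy. Both groups were formed on postnatal day 5, and the tissue was dissected 48 h later, on postnatal day 7, so the comparison asks how the SVZ differs shortly after an intestinal injury in early life. The sources used here do not give the strain, the number of animals per library or any pooling.

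Myelin is the stack of compacted membrane that oligodendrocytes wrap around axons. Oligodendrocytes arise from precursors that carry Pdgfra, pass through a committed stage with Enpp6, Bcas1 and Gpr17, and then switch on the genes of the sheath, largely under the transcription factors Sox10 and Myrf. Mbp, whose protein holds the cytoplasmic faces of the membrane together, comes on early in this sequence, and Mog late. The Mbp locus also gives golli transcripts, which begin upstream and are known in neurons and T cells. The gene-level counts do not separate them from the myelin transcripts.

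The sequence just before the gene start is shown for the genes whose window holds a match to a short motif of the 2 regulators, among those with more than 1 unique molecular identifier (UMI) in the class described below. Each window has 215 bases, from 250 to 36 bases before the RefSeq start on GRCm38.p6, written 5′ to 3′ on the gene's strand. Capitals mark the SOX motif ACAAAG or ACAATG and the MYRF motif CTGGCAC or CTGGTAC, on either strand. Mobp lies at chr9:120149492-120149706 on the plus strand, Mag at chr7:30914899-30915113 on the minus strand, Mog at chr17:37023434-37023648 on the minus strand and Cnp at chr11:100574689-100574903 on the plus strand.
Mobp: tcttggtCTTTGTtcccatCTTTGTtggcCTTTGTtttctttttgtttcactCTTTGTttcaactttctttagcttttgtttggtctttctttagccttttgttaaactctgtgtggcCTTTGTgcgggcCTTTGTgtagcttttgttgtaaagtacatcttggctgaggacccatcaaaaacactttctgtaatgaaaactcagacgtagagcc
Mag: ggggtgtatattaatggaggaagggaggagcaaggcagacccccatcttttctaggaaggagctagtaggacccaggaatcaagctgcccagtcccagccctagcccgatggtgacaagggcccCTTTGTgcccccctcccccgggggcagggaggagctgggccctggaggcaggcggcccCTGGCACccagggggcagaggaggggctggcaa
Mog: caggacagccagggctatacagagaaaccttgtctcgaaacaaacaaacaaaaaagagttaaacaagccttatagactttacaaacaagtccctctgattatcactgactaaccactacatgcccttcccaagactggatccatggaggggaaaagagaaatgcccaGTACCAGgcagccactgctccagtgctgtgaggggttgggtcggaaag
Cnp: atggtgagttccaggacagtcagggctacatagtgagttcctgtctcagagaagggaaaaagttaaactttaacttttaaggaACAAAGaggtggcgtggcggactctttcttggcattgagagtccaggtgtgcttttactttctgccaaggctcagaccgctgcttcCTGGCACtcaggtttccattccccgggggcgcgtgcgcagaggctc
The Mobp window held 6 SOX matches and no MYRF match, and the Mog window 0 SOX matches and 1 MYRF match. The Mag and Cnp windows each held 1 of both, and no matches overlapped. Of the other 4 windows that were searched, that of Opalin held 1 SOX match and those of Mal, Cldn11 and Ugt8a held none. Of all 32851 promoter windows of the same length, 22.6% held a SOX match and 5.12% a MYRF match, and a match is a description of these letters only.

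The MIP library held 12366 barcodes with 100823376 UMIs, and the Control library 16964 barcodes with 146730970 UMIs. After filtering, 10891 MIP and 14548 Control nuclei were kept, with median depths of 6001 and 5638 UMIs. The libraries differed in sex: Xist had 165 UMIs in the MIP library and 262103 in the Control library, and Y-linked genes had 47673 and 53. With 1 library per group, injury, sex and library cannot be told apart, no test was made, and every interval below covers counting error only, with 95% confidence. The libraries shared 115 barcode sequences, of which 1 in each lay in the class described next.

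The class of differentiating oligodendrocyte-like nuclei was 1 of 27 clusters, made without the 9 genes. It was named from Sox10, Enpp6, Bcas1 and Tns3, all of which were among its 60 leading genes. Among its 10 leading genes were Bcas1, Bcas1os2, Enpp6, 9630013A20Rik, Mbp, St18, Tns3, Mag and Bmp4. The class held 122 MIP nuclei, or 1.12% of those kept, and 208 Control nuclei, or 1.43%. Clusters of low depth made up 6.57% of kept nuclei in MIP and 24.9% in Control, so these shares rest on unlike totals. Of the nuclei of the lineage, which adds precursor-like nuclei and a cycling cluster with precursor markers, the class was 14.7% in MIP and 20.6% in Control. The median depth of the class was 4980 UMIs in MIP and 6671.5 in Control. Levels are a gene's UMIs scaled to the UMI total of the class, in CPM. The 4 naming genes were at like or slightly higher levels in MIP: Sox10 at 831 CPM in MIP and 801 in Control, Enpp6 at 991 and 821, Bcas1 at 4400 and 3871, and Tns3 at 1839 and 1630. Pdgfra, the receptor that marks precursors, was at 23.8 CPM in MIP and 23.6 in Control, against 937 and 1021 CPM in precursor-like nuclei.

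In this class the 9 genes did not move together. Mbp was higher in MIP, Mobp and Mog were lower, Mag, Cnp, Cldn11 and Ugt8a had intervals that include no difference, and Mal and Opalin were almost absent. Of the 7 genes with at least 20 UMIs over both libraries, 0 were higher and 2 were lower in MIP by a fold of 1.5 or more. Among the 10088 genes of the class with that many UMIs, 26.3% passed this fold, 8.67% higher and 17.6% lower in MIP. The median log2 ratio of MIP to Control was -0.10 over the 7 genes and -0.08 over all 10088, so the list as a whole lay near the background.

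Mbp had 3040 UMIs in MIP and 4624 in Control, which is 4530 CPM and 3121 CPM. The log2 ratio was 0.54 (0.47 to 0.60), a 1.45-fold higher level in MIP, just under the fold of 1.5. Per nucleus, Mbp ran from 0 over a median of 15 to 202 UMIs in MIP, and from 0 over a median of 9 to 236 UMIs in Control. The 2 distributions overlapped over nearly their whole range. Without the nucleus richest in Mbp in each library the log2 ratio was 0.53. With every nucleus thinned to 2000 UMIs, an expected 80.0% of MIP nuclei (71.8 to 86.7) and 69.3% of Control nuclei (62.5 to 75.5) held an Mbp UMI. The same share was 8.26% of MIP and 7.33% of Control spiny projection neuron-like nuclei, at median depths of 8022 and 10900 UMIs. Before thinning it was 86.1% and 79.8% in the differentiating class.

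Mobp, which codes for a small basic protein of compact myelin, had 48 UMIs in MIP and 335 in Control. The levels were 71.5 CPM in MIP and 226 CPM in Control, a log2 ratio of -1.66 (-2.13 to -1.22). These UMIs came from few nuclei: 7 of 122 in MIP and 13 of 208 in Control held any. The richest MIP nucleus held 22 of the 48 UMIs and the richest Control nucleus 125 of the 335. In each library this nucleus was also the richest in Mbp, with 202 Mbp UMIs in MIP and 236 in Control. Without it Mobp was at 39.8 CPM in MIP and 144 CPM in Control, a log2 ratio of -1.85. The interval treats UMIs as independent, which UMIs of so few nuclei are not, and after thinning the expected share of nuclei with Mobp was 3.89% (1.22 to 9.05) in MIP and 4.91% (2.40 to 8.81) in Control. The shares of positive nuclei thus had overlapping intervals, while a positive nucleus held fewer Mobp UMIs in MIP. The 3′ end of Mobp shares its strand with Gm38642, which itself had 6 UMIs in MIP and 8 in Control.

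Mog codes for an immunoglobulin-like protein on the outermost face of the sheath. It had 24 UMIs in 10 MIP nuclei and 95 UMIs in 30 Control nuclei, and its levels were 35.8 CPM and 64.1 CPM. The log2 ratio was -0.84 (-1.55 to -0.18), and -1.06 without the richest nucleus of each library, which held 9 and 25 UMIs. Mag, an adhesion protein of the membrane that faces the axon, had 209 UMIs in 50 MIP nuclei and 446 in 86 Control nuclei. Its levels were 311 CPM and 301 CPM, with a log2 ratio of 0.05 (-0.20 to 0.29). The richest nucleus held 45 Mag UMIs in MIP and 52 in Control. The expected share of nuclei with Mag after thinning was 25.8% in MIP and 24.1% in Control, so neither the level nor the share differed beyond counting error.

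Cnp codes for a phosphodiesterase of non-compact myelin and had 119 UMIs in MIP and 282 in Control, or 177 CPM and 190 CPM. Its log2 ratio was -0.10 (-0.42 to 0.21), and after thinning 27.9% of MIP and 28.9% of Control nuclei held it. Part of Cnp overlaps Dnajc7 on the other strand, which had 148 UMIs in MIP and 308 in Control, and the sources used here do not say whether reads were counted by strand. Cldn11, the claudin of the tight junctions between myelin layers, was at 133 CPM in MIP and 138 CPM in Control, with a log2 ratio of -0.05 (-0.43 to 0.31). Ugt8a, the enzyme that makes galactosylceramide, a main myelin lipid, had 228 UMIs in 79 MIP nuclei and 569 in 151 Control nuclei. Its levels were 340 CPM and 384 CPM, with a log2 ratio of -0.18 (-0.41 to 0.05). Of these 3 genes none had an interval that left out a ratio of 1.

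Mal, a membrane-sorting protein of myelin, and Opalin, a transmembrane protein of late oligodendrocytes, each had 0 UMIs in MIP and 1 UMI in Control. A count of 0 in 121 thinned MIP nuclei allows a share of up to 2.48% of nuclei with a UMI. Levels between genes were compared per length of the gene model in 2 ways, since it is not known whether intronic reads were counted. Scaled to the whole span, Mbp was highest in both libraries, at 41.0 CPM per kb in MIP and 28.2 in Control, followed by Mag at 19.8 and 19.2. Cnp (10.5 in MIP, 11.3 in Control) and Cldn11 (9.21 and 9.56) came next and had overlapping counting intervals. Ugt8a (4.63 and 5.24) and Mog (2.83 and 5.07) were lower, and close to each other in Control. Mobp, at 2.25 CPM per kb in MIP and 7.12 in Control, was the lowest of these 7 genes in MIP but lay above Ugt8a and Mog in Control. Scaled to the exonic length, Mbp was again highest, at 535 CPM per kb in MIP and 369 in Control, but Ugt8a (74.9 and 84.7) stood beside Mag (76.5 and 73.9) and Cldn11 (70.9 and 73.6). Cnp (48.7 and 52.3) then lay below these 3, and Mog (21.0 and 37.6) and Mobp (10.4 and 33.0) were lowest in both libraries.

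**Figure D1:**
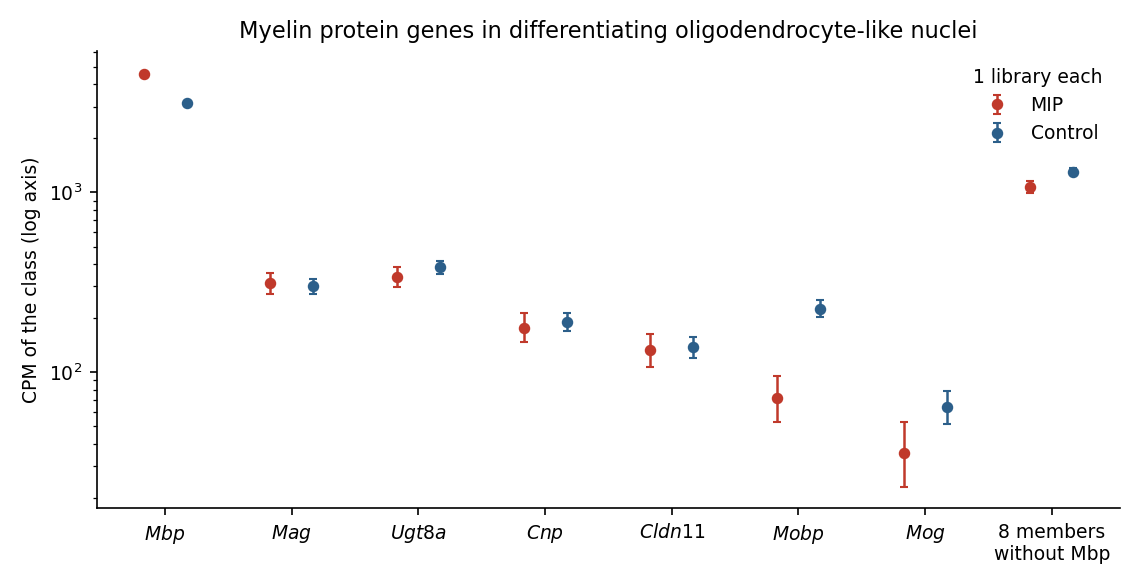
Level of 7 myelin protein genes and of the 8 genes without Mbp in differentiating oligodendrocyte-like nuclei, in CPM on a log axis, MIP in red on the left and Control in blue on the right, with exact Poisson intervals for 1 library each. Mbp stands at 4530 CPM in MIP above 3121 in Control, Mobp at 71.5 below 226, and the intervals of Mag, Cnp, Cldn11 and Ugt8a overlap between the libraries.

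The gap between Mbp and the rest can be read from the split of UMIs. Mbp held 80.9% (79.6 to 82.2) of the UMIs of the 9 genes in MIP and 70.5% (69.4 to 71.6) in Control. The 9 genes summed to 5598 CPM in MIP and 4426 CPM in Control, a log2 ratio of 0.34 (0.28 to 0.40). The 8 genes without Mbp summed to 1068 CPM in MIP and 1305 CPM in Control, a log2 ratio of -0.29 (-0.41 to -0.16). Much of this last difference was Mobp: the 7 genes left without Mbp and Mobp summed to 997 CPM in MIP and 1079 CPM in Control, with a log2 ratio of -0.11 (-0.25 to 0.02). Even then Mbp held 82.0% of the remaining UMIs in MIP and 74.3% in Control. The sign of the sum of the whole set is therefore that of Mbp. Over all kept nuclei, where the smaller share of the class in MIP also counts, the 9 genes were at 109 CPM in MIP and 128 CPM in Control, and Mbp was at 67.1 and 72.9.

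**Figure D2:**
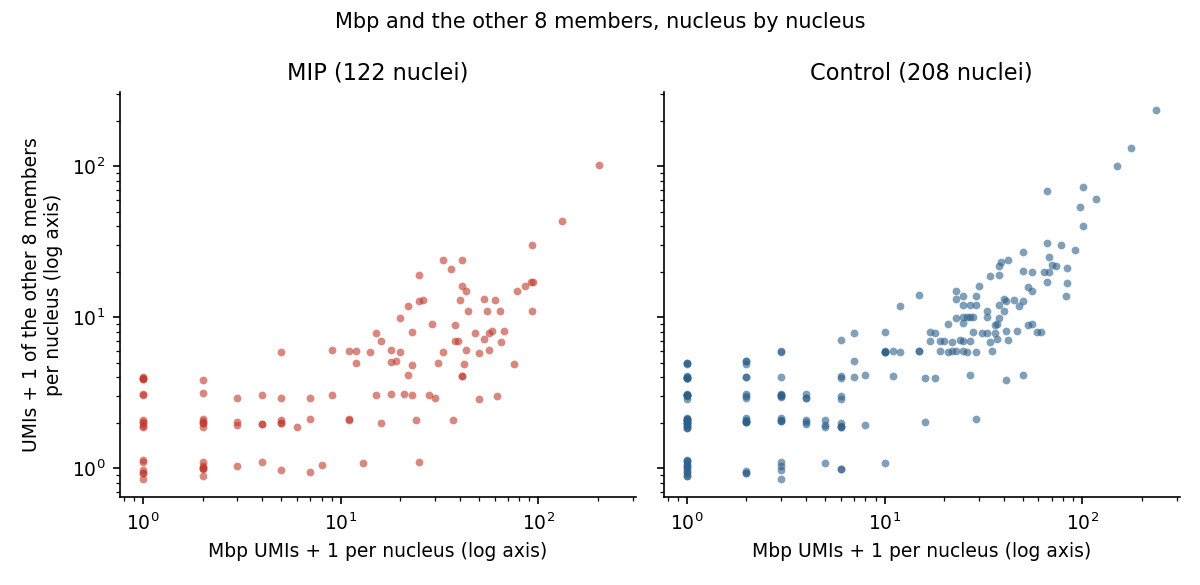
Each point is 1 differentiating oligodendrocyte-like nucleus, with its Mbp UMIs + 1 on the horizontal log axis and the UMIs + 1 of the other 8 genes on the vertical log axis, which has a small jitter; MIP (122 nuclei) is on the left and Control (208 nuclei) on the right. The richest nucleus has 202 Mbp UMIs and 101 of the other genes in MIP, and 236 and 233 in Control.

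To compare nuclei by ranges of Mbp, the class was divided by the Mbp UMIs of a nucleus after 1 seeded thinning to 2000 UMIs. This division was made after the values had been seen. Since Mbp set the strata, its own level in them is no result, but it was not equal between the libraries. Mbp was at 86.6 CPM in MIP and 140 CPM in Control where thinning left no Mbp UMI. With 1 to 9 it was at 2847 and 2382 CPM, and with 10 or more at 7980 and 6806 CPM. The strata therefore do not match nuclei for Mbp. No Mbp UMI was left in 22 MIP nuclei (18.2% of 121) and 63 Control nuclei (30.4% of 207), and 1 to 9 in 58 (47.9%) and 97 (46.9%). The Mbp-rich stratum, with 10 or more, held 41 MIP nuclei (33.9%; 25.5 to 43.0) and 47 Control nuclei (22.7%; 17.2 to 29.0). The share of Mbp-rich nuclei was higher in MIP, with intervals that overlap. The fixed cut thus sets the richest 33.9% of MIP nuclei beside the richest 22.7% of Control nuclei, which need not be at a like stage.

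At these fixed cuts the other 8 genes differed where Mbp was high. Because Mbp was higher in MIP over the class, a gene with no difference over the class can be lower in MIP at a fixed cut. Whether the other genes were lower apart from the Mbp difference was not tested. In nuclei without an Mbp UMI they stood at 240.5 CPM in MIP and 291 CPM in Control. With 1 to 9 Mbp UMIs they stood at 822 CPM and 830 CPM, a log2 ratio of -0.01 (-0.24 to 0.21). With 10 or more, they stood at 1643 CPM in MIP and 2900 CPM in Control, a log2 ratio of -0.82 (-0.98 to -0.66). Left without Mobp, the 7 genes in this stratum were at 1488 CPM in MIP and 2142 CPM in Control, a log2 ratio of -0.53 (-0.70 to -0.36). Each of the 6 other genes with at least 20 UMIs was lower in MIP there. The log2 ratio was -2.29 for Mobp, -1.55 for Mog, -0.86 for Cldn11, -0.60 for Cnp, -0.36 for Mag and -0.34 for Ugt8a. The intervals of all 6 lay below 0, the nearest being that of Ugt8a (-0.65 to -0.03), and 4 of the 6 were lower by a fold of 1.5 or more. Among the 5520 genes with at least 20 UMIs in this stratum, 7.55% had an interval below 0 and 9.51% one above it, while 16% were lower and 17.1% higher by this fold. The median log2 ratio was -0.73 over the 6 genes and 0.03 over all 5520. In the middle stratum Ugt8a was lower in MIP as well, at -0.44 (-0.83 to -0.06), and Cldn11 higher, at 0.72 (0.09 to 1.34).

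Genes outside the set behaved in more than one way in the Mbp-rich stratum. The class-naming genes Enpp6 (0.22) and Bcas1 (0.23) were slightly higher in MIP. Gpr17, a receptor of committed precursors that is lost as they mature, was lower in MIP in every stratum, with log2 ratios of -1.26, -0.75 and -1.26 at 0, 1 to 9 and 10 or more Mbp UMIs.

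**Figure D3:**
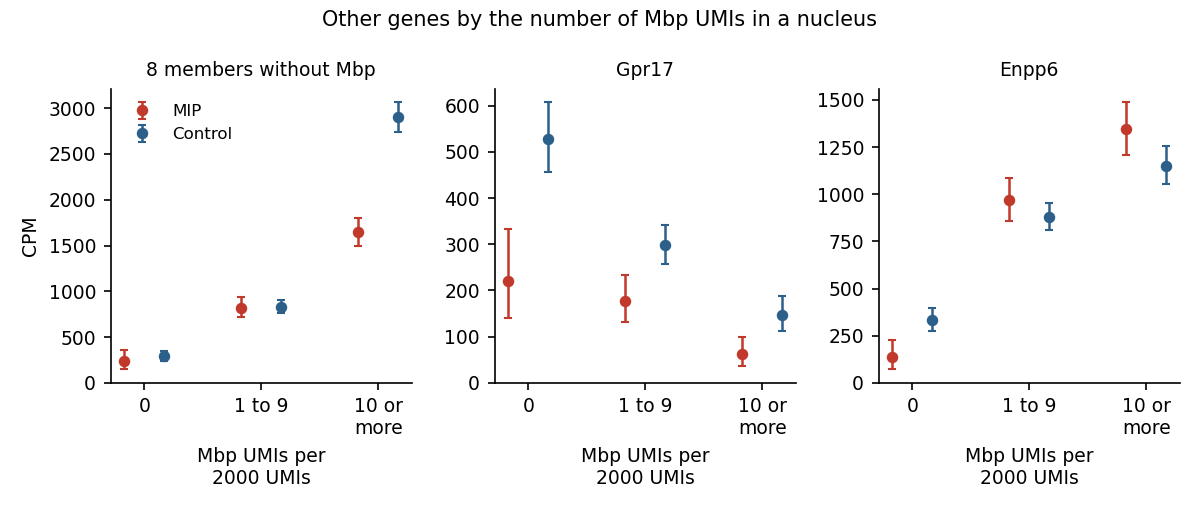
CPM of the 8 genes without Mbp, of Gpr17 and of Enpp6 in differentiating oligodendrocyte-like nuclei with 0, 1 to 9 or 10 and more Mbp UMIs per 2000 UMIs, MIP in red left of Control in blue, with exact Poisson intervals. The 8 genes are level at 822 and 830 CPM in the middle stratum and apart at 1643 in MIP and 2900 in Control in the highest.

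Gpr17 was examined as a second measure of stage, also chosen after its values had been seen. Over the class it was at 136 CPM in MIP and 313 CPM in Control, a log2 ratio of -1.20 (-1.55 to -0.88). Gpr17 was lower in MIP outside the class as well. In precursor-like nuclei it was at 63.2 CPM in MIP and 110 CPM in Control, a log2 ratio of -0.80 (-1.06 to -0.54). Over all kept nuclei the log2 ratio was -1.41. Nuclei on one side of a Gpr17 split thus need not be at a like stage in the 2 libraries. A Gpr17 UMI remained after thinning in 33 MIP nuclei (27.3%) and 78 Control nuclei (37.7%). Before thinning, 55 of 122 MIP and 160 of 208 Control nuclei held one, so some nuclei counted as without Gpr17 did hold it. In nuclei with Gpr17, Mbp was at 3278 CPM in MIP and 2080 CPM in Control, a log2 ratio of 0.66 (0.50 to 0.81). In nuclei without it, Mbp was at 4926 and 3667 CPM, a log2 ratio of 0.43 (0.35 to 0.50). Mbp was thus higher in MIP on both sides of this split. The other 8 genes had log2 ratios of -0.29 (-0.66 to 0.05) with Gpr17 and -0.41 (-0.55 to -0.28) without it. All 48 MIP and all 335 Control UMIs of Mobp came from nuclei in which no Gpr17 UMI was left after thinning.

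Relative to precursor-like nuclei of the same library, most of the 9 genes were steeply higher in the differentiating class. On the log2 scale Mbp was 6.42 higher in MIP and 6.03 higher in Control, and Mog 4.10 and 4.73. Cldn11 was 6.99 higher in MIP, where precursors held 3 UMIs (5.40 to 9.30), and 6.19 in Control. Mag was 8.22 higher in MIP, where they also held 3 (6.66 to 10.5), and 6.96 in Control. Mobp had 2 MIP and 1 Control UMIs in precursors, so its steps of 6.69 (4.76 to 9.77) and 9.72 (7.23 to 15.0) are poorly fixed. Cnp, at 2.59 in MIP and 2.41 in Control, and Ugt8a, at 1.74 and 1.82, had the shallowest steps. Ugt8a was at 102 CPM in MIP and 109 CPM in Control precursor-like nuclei, and at 103 and 89.7 CPM in a cycling cluster with precursor markers. Of the 9 genes, 3 reached 20 UMIs in precursor-like nuclei and 0 of these passed a fold of 1.5, where 19.8% of 13353 genes did.

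Barcodes of low depth were used as a measure of free RNA. The least deep barcode held 590 UMIs in MIP and 1027 in Control, so the low-depth barcodes of the libraries are not alike. Barcodes under 1500 UMIs numbered 1087 in MIP and 3443 in Control. In them the 9 genes were at 119 CPM (97.2 to 144) in MIP and 152 CPM (140 to 165) in Control. Mbp was at 54.9 and 58.3 CPM in these barcodes and the other 8 at 64.1 and 93.7 CPM. The differentiating class stood above this level 82.5-fold for Mbp in MIP and 53.5-fold in Control, and 16.7-fold and 13.9-fold for the other 8. Mbp in precursor-like nuclei, at 52.7 CPM in MIP and 47.8 in Control, was 0.961 and 0.820 of it, and Cnp, at 29.5 and 35.7 CPM, was 0.889 and 0.616 of it. How much of either in precursors is free RNA was not tested: astroglia-like nuclei, whose median depths of 3922 UMIs in MIP and 5441 in Control are near the 4134 and 5045 of precursors, held less Mbp (6.20 and 9.85 CPM) but about as much Cnp (28.2 and 32.7 CPM). After thinning, 9.37% of MIP and 8.72% of Control precursor-like nuclei held an Mbp UMI, against 1.38% and 1.97% of astroglia-like nuclei. The other 8 genes there, at 136 CPM in MIP and 151 CPM in Control, stood at 2.13 and 1.62 times the level in low-depth barcodes, carried mostly by Ugt8a.

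**Figure D4:**
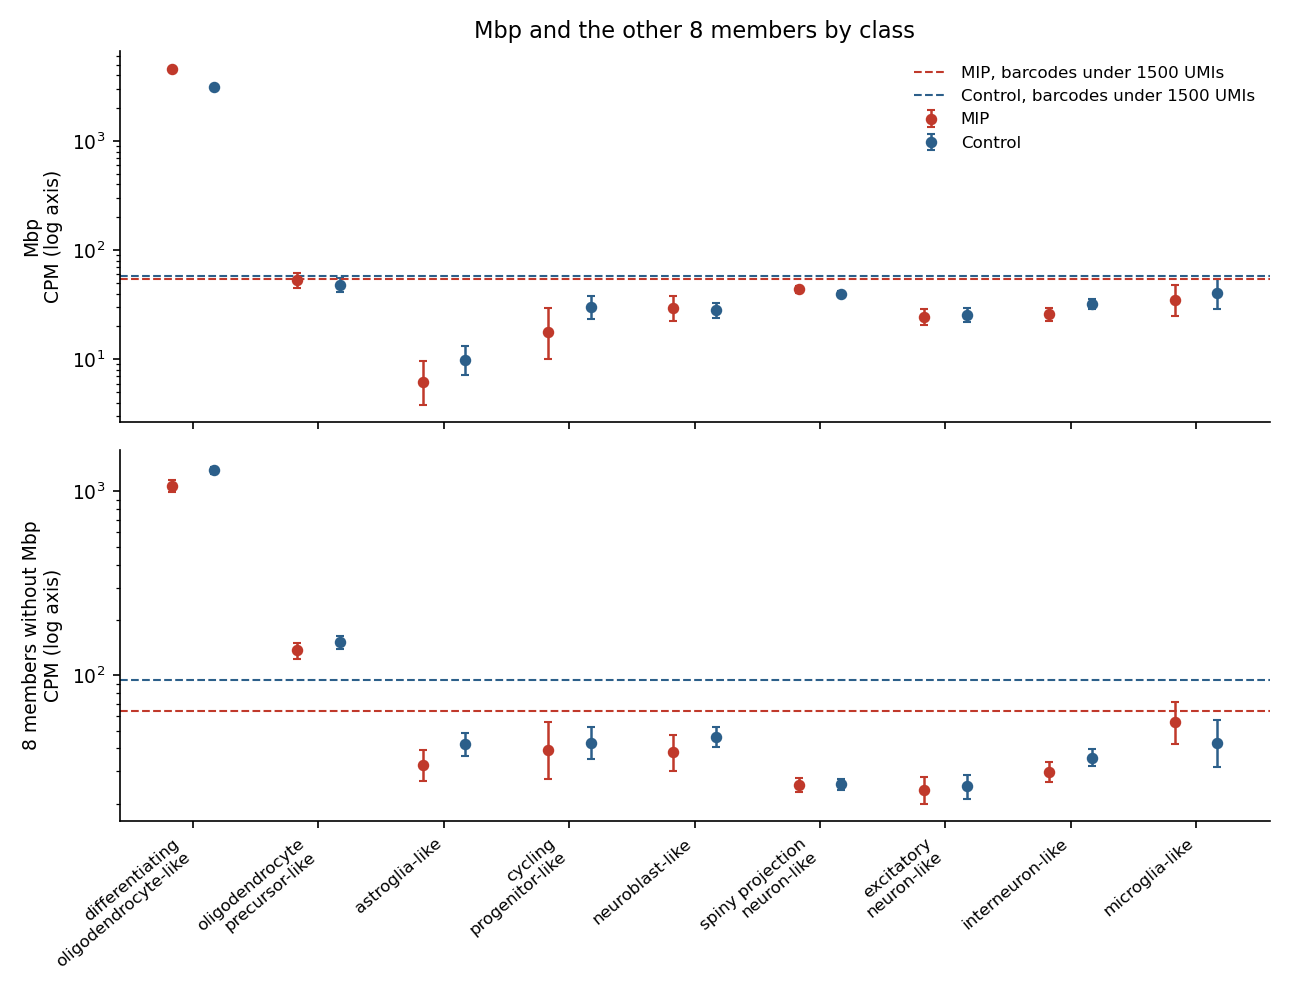
Mbp (top) and the other 8 genes (bottom) in 9 classes, in CPM on log axes, MIP in red left of Control in blue with exact Poisson intervals; dashed lines give the level in barcodes under 1500 UMIs. For Mbp only the differentiating class lies above the lines, and for the other 8 genes that class and the precursors do.

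The low Mbp levels outside the lineage were not alike between classes. Spiny projection neuron-like nuclei, the striatal neurons beside the SVZ, were at 43.6 CPM in MIP and 39.8 CPM in Control. Astroglia-like nuclei were far lower, at 0.113 of the level in low-depth barcodes in MIP and 0.169 in Control. Between these lay interneuron-like nuclei at 25.8 CPM in MIP and 32.1 in Control, with a log2 ratio of -0.31 (-0.57 to -0.06), and neuroblast-like nuclei at 29.7 and 28.1 CPM. The interneuron-like clusters were not alike. The one led by Gm45680 held 558 of the 1068 MIP and 598 of the 1080 Control nuclei of this class. It had 3 interneuron markers among its 60 leading genes but 0 among its 10, which include Tshz1 and Foxp2, so its name is weak. The clusters led by Gm45680 (27.2 CPM in MIP and 26.1 in Control) and Kcnc2 (24.7 and 24.9) were level. Those led by Gna14 (22.5 and 49.6) and Nos1 (31.6 and 47.8, with overlapping intervals) had less Mbp in MIP. Within the spiny neurons, the cluster led by Ebf1 and Drd1 was at 48.5 and 46.5 CPM, and the one led by Drd2 and Adora2a at 38.4 and 31.1 CPM. The split between Mbp and the others also changed with class: Mbp was 63.3% of the 9 genes' UMIs in MIP and 60.9% in Control spiny neurons, 16.0% and 18.9% in astroglia, 27.9% and 24.0% in precursors, and 46.2% and 38.4% in barcodes under 1500 UMIs. The share in precursors is lowered by Ugt8a. The parts of free RNA and of golli transcripts in these levels were not tested, and the counts do not separate golli from myelin transcripts.

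**Figure D5:**
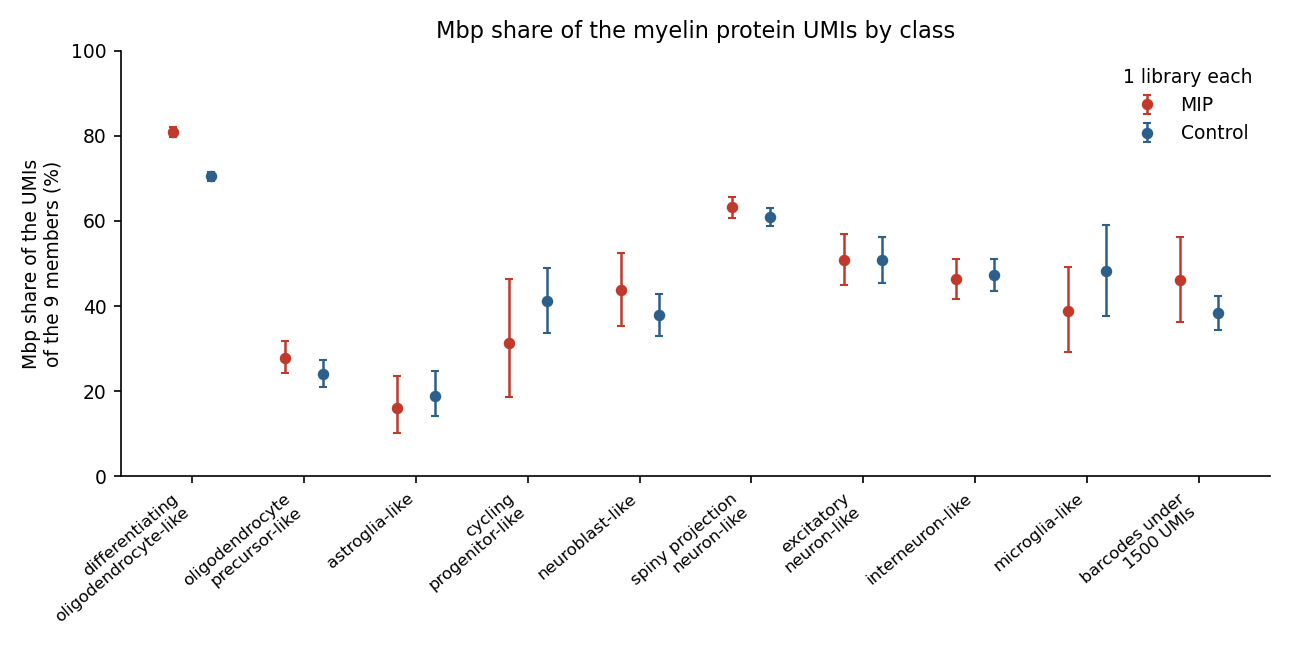
Mbp UMIs as a percentage of the UMIs of all 9 genes in 9 classes and in barcodes under 1500 UMIs, MIP in red left of Control in blue, with exact Clopper-Pearson intervals. The differentiating class has the highest share in both libraries, 80.9% in MIP and 70.5% in Control, and astroglia the lowest, 16.0% and 18.9%.

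Cnp had a second pattern outside the lineage. It was at 33.2 CPM in MIP and 58.1 CPM in Control barcodes under 1500 UMIs, and at 24.7 and 56.4 CPM in low-depth clusters, a log2 ratio of -1.19 (-2.05 to -0.44). For each 100 Mbp UMIs, Cnp had 3.91 in MIP and 6.10 in Control differentiating nuclei, but 60.4 and 99.6 in barcodes under 1500 UMIs and 455 and 333 in astroglia-like nuclei. The difference between the libraries in Cnp of low-depth barcodes was thus not seen in the differentiating class, where the gene was level. The low-depth clusters overlap with these barcodes, and 1 of them held 45 MIP but 3408 Control nuclei. Whether the Cnp difference comes from which barcodes each library holds was not tested. Mog was found at low levels in several neuronal classes. Interneuron-like nuclei were at 7.07 CPM in MIP and 13.2 CPM in Control, a log2 ratio of -0.90 (-1.37 to -0.44), and neuroblast-like nuclei at 9.39 and 11.3 CPM, against 4.58 and 5.30 CPM in barcodes under 1500 UMIs. Spiny projection neuron-like nuclei held Mog at 3.54 CPM in MIP and 4.82 in Control. The Mog level of these barcodes rests on only 4 UMIs in MIP (1.25 to 11.7 CPM) and on 21 in Control (3.28 to 8.10 CPM). The MIP interval covers the MIP levels of all these classes, so none is clearly above or below these barcodes. In Control only the interneuron-like and neuroblast-like levels given here lay above the interval. Mag in microglia-like nuclei had 22 UMIs or 20.3 CPM in MIP and 11 UMIs or 10.05 CPM in Control, and the log2 ratio of 1.02 had an interval that includes no difference (-0.09 to 2.21). Barcodes under 1500 UMIs held Mag at 8.01 CPM (3.22 to 16.5) in MIP and 6.31 CPM (4.08 to 9.32) in Control. The Control level in microglia is thus not clearly above these barcodes, and the MIP level in these barcodes rests on only 7 UMIs. Other nuclei held less Mag, with astroglia-like nuclei at 0.62 CPM in MIP and 1.15 in Control. Neuroblast-like nuclei were at 1.48 and 1.94 CPM. How much of the Mag in microglia-like nuclei is free RNA was not tested.

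The genes differed in how much of their RNA lay in the class. The differentiating class held 54.8% of all Mbp UMIs of kept nuclei in MIP and 55.4% in Control. It held 48 of the 64 Mobp UMIs in MIP and 335 of the 361 in Control, 73.3% and 74.2% of Mag, 46.6% and 56.8% of Cldn11 and 30.2% and 42.0% of Ugt8a. Only 7.18% of Cnp in MIP and 11.0% in Control, and 4.81% and 9.69% of Mog, lay there. For the 8 genes without Mbp the share was 20.7% in MIP and 30.9% in Control.

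Other genes of the pathway were read from 4 lists. Of 34 other myelin and mature oligodendrocyte genes, 17 had at least 20 UMIs in the differentiating class, of which 0 were higher and 6 lower in MIP by a fold of 1.5, with a median log2 ratio of -0.18, beside 8.67% higher and 17.6% lower among all genes of the class. The 6 were Gjc3, Tmem88b, Trf, Ninj2, Plekhh1 and Cd9. Among the most abundant of the list were the deacetylase gene Sirt2 at 970 CPM in MIP and 957 CPM in Control (0.02), the junctional adhesion gene Jam3 at 450 and 351 (0.36; 0.15 to 0.57) and the tetraspanin gene Cd9 at 280 and 446 (-0.67; -0.91 to -0.44). Jam3 and Cd9 thus differed in sign, as did genes of the myelin protein set itself.

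Of 15 genes of myelin lipid synthesis all had 20 UMIs, 0 were higher and 2 lower in MIP (Elovl1 and Elovl5, fatty acid elongases), a share below the 17.6% of all genes, with a median of -0.02. Fa2h, which hydroxylates the fatty acids of myelin lipids, was at 262 CPM in MIP and 267 CPM in Control, and Gal3st1, which makes sulfatide from the product of Ugt8a, at 101 and 107. Elovl7, another elongase, had a log2 ratio of 0.18 (-0.04 to 0.40), an interval that includes no difference. In precursor-like nuclei the same list had 4 higher and 0 lower genes and a median of 0.39, where 4.42% of all genes were higher and 15.3% lower by this fold and the median of all genes was -0.10.

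Of 15 genes of the newly committed stage all had 20 UMIs and 4 were lower in MIP, Gpr17, Lims2, Kif19a and Mycl, not far from the 17.6% of all genes, with a median of -0.17. The most abundant were Bcas1 (0.18), Tns3 (0.17), Fyn, a kinase that relays contact with axons, at 3049 CPM in MIP and 2983 in Control, and 9630013A20Rik, an RNA gene, at 2766 and 3111 (-0.17). Of 18 myelination transcription factors 17 had 20 UMIs, 0 were higher and 4 lower (Zeb2, Tcf7l2, Nkx2-2 and Id4), also near the 17.6% of all genes, with a median of -0.13. Zeb2 was at 846 CPM in MIP and 1924 CPM in Control (-1.19; -1.32 to -1.05), and Tcf7l2, needed for the transition to myelinating cells, at 888 and 1403 (-0.66; -0.79 to -0.53). Sox6, which holds precursors undifferentiated, was at 2564 and 2211 CPM (0.21; 0.13 to 0.30), and Sox10 was level. Myrf, the factor that switches on the sheath genes, was at 143 CPM in MIP and 112 in Control, a log2 ratio of 0.35 (-0.03 to 0.72).

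Across 9 classes in 2 libraries, the 8 genes without Mbp were followed most closely by Neu4 and Plxnb3 (Pearson r of 0.97 each over 18 points, on log2(CPM + 1)) among 18533 genes. Sirt2 (0.97), Fa2h, 1700047M11Rik, Myrf, Gm15222, Bmp4 and Bcas1 (0.96 each) and Sept7 (0.95) came next. The points share libraries and depth, and the differentiating class stands far above the rest. Of the set itself, Cnp (0.95), Cldn11 (0.92), Mbp (0.91), Mobp (0.91), Ugt8a (0.90) and Mag (0.88) followed the sum, of which all but Mbp are part. Mog (0.58), Opalin (0.25) and Mal (0.12) followed it less. Neu4, a sialidase gene, was at 297 CPM in MIP and 352 CPM in Control in the class, and Bmp4, a secreted growth factor gene, at 286 and 340.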

How the data were processed

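Nuclei from snap-frozen mouse SVZ were counted in 1 MIP and 1 Control library, grouped by the labels. The deposited counts are whole UMIs for each gene in each barcode, not normalized. Per the submitters' processing notes the authors used Cell Ranger 5.0.1 and mm10. The sources used here do not give intron counting, strand handling or barcode calling. All per-sample columns were used (0 left out).

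Barcodes with under 500 genes (204 MIP, 0 Control) or over 5% mitochondrial UMIs (48 and 114) were left out. Scrublet's automatic threshold marked 0 doublets in each library, so the top 0.8% per 1000 barcodes were removed, 1223 in MIP and 2302 in Control. These are 9.89% and 13.6% of barcodes and held 17.6% and 21.9% of the 9 genes' UMIs, so the filter took more where the library was larger.

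Counts per 10000, log-transformed, were clustered over both libraries (3000 variable genes, 40 principal components, 20 neighbours, Leiden at resolution 1) with Scanpy 1.11.5, igraph 0.11.9, scikit-learn 1.9.0, NumPy 2.4.6, SciPy 1.17.1 and pandas 2.3.3 in Python 3.11.15. The 9 genes and the other myelin and lipid genes were kept out of the variable genes. Clusters were named from fixed markers, with at least 3 among the 60 leading genes, so names mean resemblance. Raw UMIs were summed per class and library. Ratios have exact Poisson intervals and shares exact Clopper-Pearson intervals. UMIs of one nucleus are not independent molecules, so intervals of levels and ratios are too narrow, most of all where few nuclei hold a gene. This holds for Mbp and the sums as well, since Mbp ran from 0 to 202 UMIs per nucleus in MIP and from 0 to 236 in Control. For shares of nuclei, thinning to 2000 UMIs was computed as an expectation, and shallower nuclei were left out (1 in each library in the differentiating class). Scaling alternatives used edgeR 4.0.16 and DESeq2 1.42.0 in R 4.3.3. The ratio and its interval were tried on simulated independent Poisson counts, the model that the interval assumes. This checks the calculation only and does not cover UMIs that share a nucleus.

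Named were the 9 genes, the 4 class-naming genes, the 4 most abundant of each list and the 10 genes most like the sum without Mbp. Some genes that this rule names are not reported here. Other genes named in the lists, Gpr17, Myrf and the strata were chosen after their values were seen. The genes and lists were chosen with earlier results of these data known. Gene positions are from GENCODE M21 on mm10, and 8 of 9 promoters were read from RefSeq.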

Additional observations from a re-analysis of the deposited data

How the results depend on the processing

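No paired analysis was possible because each group is 1 library; for the same reason no replicate could be left out. Of the values that answer a comparison, none changed sign, but Mag, Cnp and Cldn11, whose intervals include no difference, did under some alternatives. Mag reached -0.11 without the nucleus richest in Mobp, Cnp 0.12 with free RNA subtracted and Cldn11 0.47 in nuclei with Gpr17. Of the values that answer a comparison, 83 moved by less than their interval and 40 by more; of the values of single genes and other classes, 232 and 52. The log2 ratios of the 9 genes and of Mbp were 0.26 and 0.46 at Leiden resolution 2, 0.27 and 0.47 without filters on barcodes, 0.15 and 0.34 for the 363 MIP and 529 Control nuclei with at least 3 of the 4 class-naming genes, 0.48 and 0.66 in nuclei with Gpr17, and 0.21 and 0.43 in nuclei without it. The nuclei with at least 3 of the 4 class-naming genes, called gated below, were largely not of the class. Of them 217 in MIP and 259 in Control were precursor-like, and 117 and 195 were of the class. With TMM or DESeq2 scaling, which shift all ratios by 0.06 and 0.05, Mbp passed the fold of 1.5 and 1 gene was higher. With no minimum above 1 UMI 4 genes were lower, which adds Mal and Opalin at 1 UMI in Control, and at a fold of 2 only 1 was. The log2 ratio of the 8 genes was -0.11 without Mobp.

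The Mbp share of the 9 genes' UMIs was 77.7% in MIP and 68.4% in Control in the gated nuclei, 82.2% and 72.1% without the nucleus richest in Mobp and 85.9% and 75.9% with Gpr17; the Control share was 71.8% with doublets kept, 71.9% thinned, 71.7% with free RNA subtracted, 74.3% without Mobp and 69.1% without Gpr17. The share of a library's Mbp in the class was 61.2% in MIP and 61.9% in Control thinned, 99.98% and 100% with free RNA subtracted, and 53.1% and 54.1% without that nucleus; in Control it was 56.5% with doublets kept and 57.1% gated. For the other 8 genes it was 25.7% in MIP and 35.2% in Control gated, 58.0% and 69.2% with free RNA subtracted, and 18.3% and 28.3% without that nucleus. Leaving out that nucleus, the Gpr17 split and the set without Mobp were chosen after seeing the data. Subtracting free RNA took the whole level of barcodes under 1500 UMIs from every class, as if all UMIs of a nucleus were free RNA. Spiny projection neuron-like nuclei held Pdgfra at only 0.0461 of that level in MIP and 0.0720 in Control, so this can take away too much. It leaves Mbp at almost 0 outside the class by construction, and the other values with free RNA subtracted depend on the same setting. The cause of the other moves was not tested. At this depth Mal and Opalin could not be compared.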
